A study of Mus musculus with 4 samples.

Results

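The 44 genes described here encode the Mediator complex with its kinase module (33 genes), and cohesin with its loading and release factors and Ctcf (11 genes). They were chosen by symbol, as every gene of the expression table called Med followed by a number, with or without the letter l, together with Cdk8, Cdk19, Ccnc, Smc1a, Smc3, Rad21, Stag1, Stag2, Nipbl, Mau2, Wapal, Pds5a, Pds5b and Ctcf. They are 44 of the 15429 genes of the table. The rule uses symbols and no measured values, but it was drawn up with earlier results of these data known. Mouse epiblast stem cells of 1 line, OE7, derived from an embryo after implantation and carrying an Oct4-Gip transgene, were used at passages 21 to 25. Cells of both groups grew on fibronectin in N2B27 medium with Activin A at 20 ng/ml and Fgf2 at 12 ng/ml, and were reverse transfected in 6-well plates with 1000 ng of esiRNA (a pool of short interfering RNAs cut from long double-stranded RNA) and 2 µl of lipofectamine 2000. The control group received Luc esiRNA (n = 2 libraries) and the other group Tox4 esiRNA (n = 2 libraries), directed at Tox4, which encodes a chromatin-associated protein with an HMG box. No label states that replicates were separate cultures, so the p-values measure how far these 4 libraries vary, a spread that may be technical. The comparison asks which transcripts differ in level between cells given Tox4 esiRNA and cells given Luc esiRNA.

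Mediator is a large complex of head, middle and tail modules that carries signals from transcription factors bound at enhancers to RNA polymerase II, and a separable kinase module, built on Cdk8 or Cdk19 with cyclin C, controls whether it can engage the polymerase. Cohesin is a ring that holds DNA strands together; it is loaded by Nipbl with Mau2, is removed by Wapal with the Pds5 proteins, and extrudes chromatin loops that often end where the zinc-finger protein Ctcf is bound. In pluripotent cells Mediator and cohesin occupy enhancers and promoters of pluripotency genes, Pou5f1 among them.

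Expression was measured as FPKM, fragments scaled to the length of the gene and to the depth of the library. The reads worked back from these values ranged from 12778044 to 19008803 per library, and mitochondrial genes took 0.840% to 0.864% of them in the Luc libraries and 1.05% in both Tox4 libraries. Tox4 itself was listed at 16.7 and 17.5 FPKM in the Luc libraries and at 8.65 and 8.89 FPKM in the Tox4 libraries, so the groups did not overlap. Its level fell by 0.89 on the log2 scale (SE 0.05, n = 2 and 2, limma adjusted p = 0.00228) and was 0.512 of the control. All 12 listed markers of pluripotent cells, some of them not particular to the primed state, were present, with means from 22.9 to 591 FPKM. Of these 12, Sox2 rose (log2 fold change 0.24, limma adjusted p = 0.0355), Cdh1 (E-cadherin) and the Nodal coreceptor Tdgf1 fell (-0.77, adjusted p = 0.00263, and -0.28, adjusted p = 0.0161), and the other 9 did not pass the test. The 7 fibroblast markers in the table summed to 20.8 and 21.0 FPKM in the Luc libraries and to 19.1 and 20.0 FPKM in the Tox4 libraries. The 6 endoderm and mesoderm markers in the table summed to 31.5 FPKM in both Luc libraries and to 20.9 and 22.9 FPKM in the Tox4 libraries, with T (Brachyury) the 1 member that passed the test. The part of these marker differences in the values below was not tested. Of the 4 naive-state markers in the table, the means lay between 0.666 and 4.22 FPKM. In such bulk RNA, fewer cells with a transcript and less of it per cell cannot be told apart.

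All 44 genes were expressed above the filter of a mean of 1 FPKM, and their transcripts differed little between Tox4 and Luc libraries. None passed the test at a limma adjusted p under 0.05 in either direction, where 4.51% of the 12403 genes tested did (1.89% higher and 2.62% lower in the Tox4 libraries). At an unadjusted limma p under 0.05 there was 1 gene, Med14, against 21.6% of all genes. The same libraries analysed as whole reads with limma-voom also called Med14 alone, as higher (log2 fold change 0.19, adjusted p = 0.0277), where that test called 11.8% of all genes (5.97% higher). The summed level of the 44 genes was 1178 and 1177 FPKM in the Luc libraries and 1195 and 1189 FPKM in the Tox4 libraries, and their reads made up 0.402% and 0.408% of the Luc libraries and 0.419% and 0.404% of the Tox4 libraries. The reads per gene and library ran from 76 to 7047, and 43 of the 44 genes had at least 100 reads in every library.

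The intervals rest on the spread of these libraries, which may be technical, so they do not bound a difference between cultures. They are not adjusted for the number of genes. Within that spread, each shows how large a difference of its gene could have gone unseen on the log2(FPKM + 1) scale. That scale shrinks the change of low genes, so in FPKM itself the limits of Med12l and Cdk19 are wider. On it, the 95% limma interval of the fold change lay within 1.25-fold in either direction for 41 of the 44 genes, where 68.1% of all genes had one so narrow. It lay within 1.5-fold for all 44 (92.1% of all genes). Among genes averaging 5 FPKM or more, as 42 of the 44 do, the shares were 83.9% and 97.5%. The 3 genes with wider intervals were Med14, Med29 and Med12l. The log2 fold change was above 0 for 26 genes and below 0 for 18, against 48.8% of all genes above 0, and its median was 0.01. The median size of the log2 fold change, without regard to sign, was 0.04, against 0.08 over all genes tested and 0.07 over the 9066 genes averaging 5 FPKM or more. In 10 of the 44 genes the 2 groups did not overlap, 5 higher and 5 lower in the Tox4 libraries, whereas 52.0% of all genes tested were so separated (25.3% higher, 26.7% lower), and 52.7% of those averaging 5 FPKM or more. For 35 of the 44 genes the replicates of at least 1 group lay further apart on the log2(FPKM + 1) scale than the group means did, as held for 59.6% of all genes tested.

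**Figure D1:**
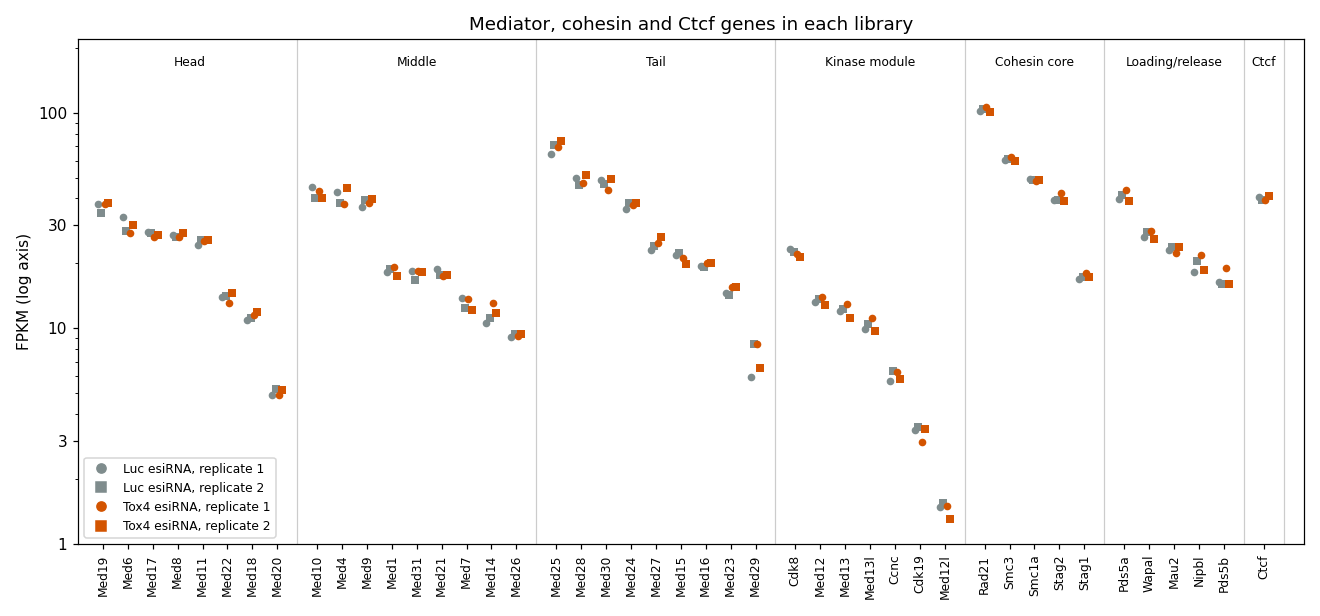
FPKM (log axis) of each of the 44 genes in each library, arranged by module and, within a module, by mean level; grey marks Luc and orange Tox4 libraries, circles replicate 1 and squares replicate 2. Levels span from 1.46 FPKM on average for Med12l to 103 FPKM for Rad21, and the 4 points of a gene lie close together beside that range.

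**Figure D2:**
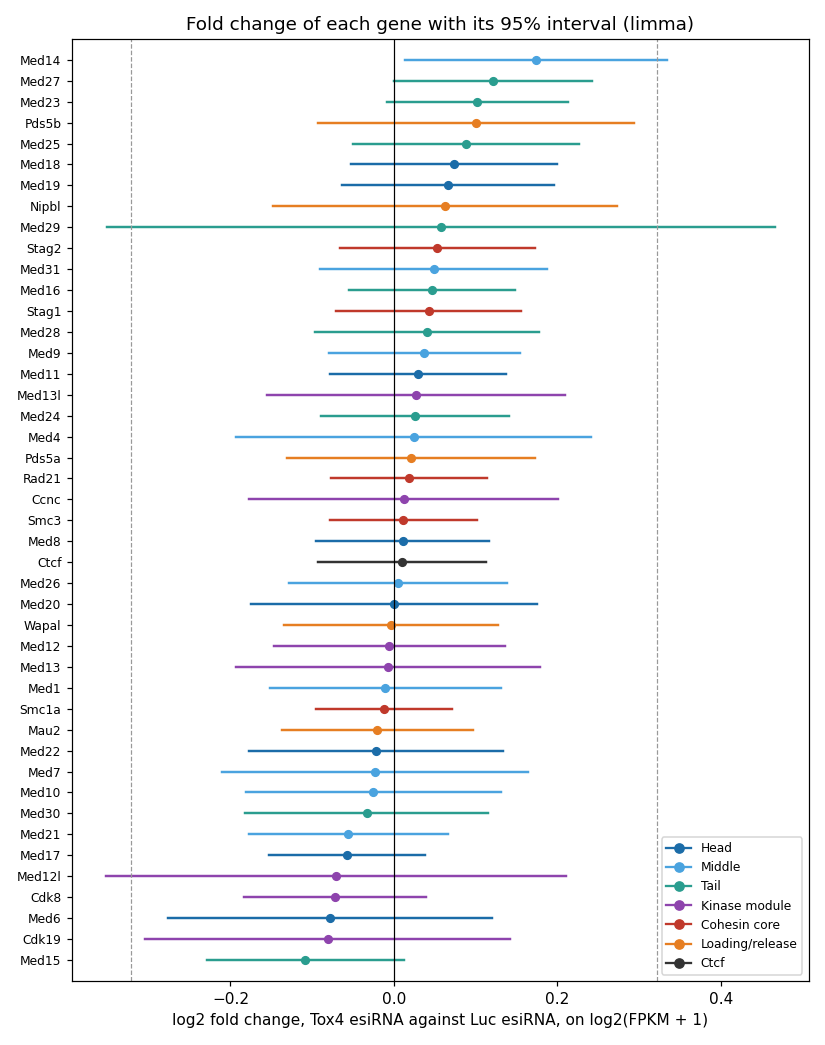
Log2 fold change of each gene, Tox4 against Luc libraries, on the log2(FPKM + 1) scale (points) with its 95% limma interval (bars), coloured by module; dashed lines mark 1.25-fold in either direction. Only the interval of Med14 lies on 1 side of 0 before adjustment, and the intervals of Med14, Med29 and Med12l cross a dashed line.

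The RefSeq promoter windows of build GRCm38.p6, each 300 bases long (250 before the transcription start and 50 after it), held 36 of the 44 genes by symbol in 41 windows. These windows were rich in CpG, with a median of 22 CpG dinucleotides and 59.0% G and C, against 7 and 52.7% over all 32851 windows. The SP-type letters GGGCGG, searched on both strands, occurred for 27 of the 36 genes (75.0%) and in 35.7% of all windows. Here and below a gene counted when any of its windows matched, which tends to raise the share of genes beside a share of windows. The ETS-type letters CCGGAAG occurred for 8 of the 36 (22.2%; all windows 8.86%), and the E-box CACGTG for 5 (13.9%; all windows 7.15%). The letters TATAAA occurred for 3 genes (8.33%; all windows 13.6%), CCAAT for 15 (41.7%; all windows 37.4%), AAGATGGC, as bound by YY1, for 1 (2.78%; all windows 2.75%), and the palindromic NRF1 motif for none (all windows 0.971%). AGGGGGC, which is part of the Ctcf core motif, occurred for 3 (8.33%; all windows 10.6%). A match is a run of letters and was not tested as a binding site. The 250 bases before the start are shown for a subunit of the ring, Smc3 (chr19:53600146-53600395, + strand), and for Ctcf (chr8:105636288-105636537, + strand), because both are of this CpG-rich kind without TATAAA and both genes held a high and even level across the libraries; capitals mark the SP-type match, which reads CCGCCC on the strand shown.
Smc3: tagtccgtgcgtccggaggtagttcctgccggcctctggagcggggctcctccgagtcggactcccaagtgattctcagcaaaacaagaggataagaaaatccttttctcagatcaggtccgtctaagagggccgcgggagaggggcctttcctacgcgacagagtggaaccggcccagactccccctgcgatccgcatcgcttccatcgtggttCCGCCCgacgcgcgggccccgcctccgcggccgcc
Ctcf: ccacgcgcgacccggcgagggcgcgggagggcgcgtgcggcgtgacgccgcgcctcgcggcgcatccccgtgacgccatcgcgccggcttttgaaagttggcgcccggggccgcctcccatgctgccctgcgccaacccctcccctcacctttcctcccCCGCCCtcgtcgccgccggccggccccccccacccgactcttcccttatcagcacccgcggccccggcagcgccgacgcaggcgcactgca

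The ring itself was among the most abundant of these transcripts. Rad21 (ENSMUSG00000022314, chr15:51962240-51991747, minus strand, in GENCODE on GRCm38), the kleisin that closes the ring, was listed at 102 and 104 FPKM in the Luc libraries and at 107 and 101 FPKM in the Tox4 libraries, the highest level of the 44 genes. The Tox4 values enclosed the Luc values (log2 fold change 0.02, SE 0.04, limma adjusted p = 0.838). Smc3, one of the pair of ATPase arms, was at 60.0 and 61.0 FPKM under Luc and at 62.1 and 59.8 FPKM under Tox4 esiRNA (log2 fold change 0.01, SE 0.04, limma adjusted p = 0.902). Smc1a, the other arm, was at 49.0 and 48.8 FPKM under Luc and at 48.4 and 48.6 FPKM under Tox4 esiRNA. The Smc1a groups did not overlap, yet they differed by less than 1 FPKM (log2 fold change -0.01, 95% interval -0.10 to 0.07, limma adjusted p = 0.883). Per length, the ratio of Rad21 to Smc1a was 2.07 and 2.12 in the Luc libraries and 2.21 and 2.08 in the Tox4 libraries, and that of Smc3 to Smc1a was 1.22 and 1.25, then 1.28 and 1.23. The arms and the kleisin thus kept ratios that overlapped between the groups. The order of Smc3 and Smc1a depends on the lengths behind the FPKM values. The lengths implied were 2644 and 5103 bases, where the annotated exons sum to 5541 and 5769 bases. In Luc replicate 1 Smc3 had 3087 recovered reads and Smc1a 4865. By annotated exon lengths Smc1a would be the higher in that library, if the recovered reads hold no unseen common factor.

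Stag1 and Stag2 are alternative subunits that dock on the ring, and a cohesin complex holds one or the other. Stag2 was at 39.1 and 39.3 FPKM in the Luc libraries and at 42.4 and 39.0 FPKM in the Tox4 libraries, so that Tox4 replicate 1 alone stood above the rest (log2 fold change 0.05, SE 0.05, limma adjusted p = 0.589). Stag1 was at 17.0 and 17.3 FPKM under Luc and at 18.1 and 17.3 FPKM under Tox4 esiRNA (log2 fold change 0.04, SE 0.05, limma adjusted p = 0.659). Stag2 made up 69.7% and 69.4% of the sum of both FPKM values in the Luc libraries and 70.1% and 69.3% in the Tox4 libraries.

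The factors that load and release the ring were less abundant than Rad21, Smc3 and Smc1a, though most of them were above Stag1. Nipbl, the loader, was at 18.3 and 20.4 FPKM in the Luc libraries and at 21.9 and 18.7 FPKM in the Tox4 libraries, with the groups interleaved (log2 fold change 0.06, SE 0.09, limma adjusted p = 0.735). Its partner Mau2 was at 23.1 and 23.8 FPKM under Luc and at 22.4 and 23.8 FPKM under Tox4 esiRNA (log2 fold change -0.02, SE 0.05, limma adjusted p = 0.855). Wapal, the releasing factor, was at 26.6 and 27.9 FPKM, then 28.3 and 26.1 FPKM (log2 fold change -0.0036, SE 0.05, limma adjusted p = 0.977). These 3 genes overlapped between the groups.

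Pds5a and Pds5b encode a pair of related proteins that bind cohesin and take part in both its release and its protection. Pds5a was at 39.9 and 41.4 FPKM in the Luc libraries and at 43.9 and 38.9 FPKM in the Tox4 libraries (log2 fold change 0.02, SE 0.06, limma adjusted p = 0.890). Pds5b was at 16.4 and 16.0 FPKM under Luc and at 19.0 and 16.0 FPKM under Tox4 esiRNA. Its difference (log2 fold change 0.10, SE 0.08, limma adjusted p = 0.525) rested on Tox4 replicate 1: without that library it was -0.01, and without Tox4 replicate 2 it was 0.21. Ctcf was at 40.7 and 39.2 FPKM in the Luc libraries and at 39.3 and 41.1 FPKM in the Tox4 libraries, with the groups overlapping (log2 fold change 0.01, 95% interval -0.09 to 0.11, limma adjusted p = 0.930).

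Across the 11 cohesin and Ctcf genes the mean levels ran from 16.9 FPKM for Pds5b to 103 FPKM for Rad21, and the log2 fold changes from -0.02 to 0.10, with a median of 0.02 against -0.0034 over all genes tested. Of the 11 values, 8 were above 0 and 3 below. The sum of the 5 core genes was 267 and 270 FPKM in the Luc libraries and 278 and 266 FPKM in the Tox4 libraries, and that of the 5 loading and release genes was 124 and 130 FPKM, then 136 and 124 FPKM. In both sums Tox4 replicate 1 was the highest library and Tox4 replicate 2 the lowest.

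Mediator transcripts covered a wider range of levels, from 1.46 FPKM for Med12l to 69.5 FPKM for Med25, both averages over the 4 libraries. The log2 fold changes of the 33 genes ran from -0.11 to 0.17 with a median of 0.01, with 18 above 0 and 15 below. The sum over the 33 genes was 746 and 738 FPKM in the Luc libraries and 743 and 759 FPKM in the Tox4 libraries.

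The middle module holds Med14, the backbone that connects head, middle and tail. Med14 (ENSMUSG00000064127, chrX:12675369-12762073, minus strand, in GENCODE on GRCm38) was at 10.6 and 11.2 FPKM in the Luc libraries (1654 and 1384 reads) and at 13.0 and 11.8 FPKM in the Tox4 libraries (1582 and 1241 reads). Both Tox4 values were above both Luc values, with means of 12.4 ± 0.877 FPKM (SD, n = 2) against 10.9 ± 0.451 FPKM (SD, n = 2). The difference, 0.17 on the log2 scale (SE 0.07, 95% interval 0.01 to 0.33), was the largest of the 44 genes, with an unadjusted p of 0.0380 and an adjusted p of 0.202 by limma. Its adjusted p ranged from 0.0277 to 0.582 over the alternatives tried, and only limma-voom on whole reads took it past the threshold. With each library left out in turn its log2 fold change stayed between 0.11 and 0.24. Med14 is one of the longest of these genes, at 8040 bases, and Tox4 replicate 1 exceeded Tox4 replicate 2 for it, as for the long genes described further on. With a smooth trend with length removed from each library, its log2 fold change was 0.15 (limma adjusted p = 0.142).

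Med1, the middle subunit through which nuclear receptors contact the complex, was at 18.2 and 18.8 FPKM in the Luc libraries and at 19.3 and 17.5 FPKM in the Tox4 libraries (log2 fold change -0.01, SE 0.06, limma adjusted p = 0.943). Med26, which links Mediator to elongation factors, was at 9.06 and 9.42 FPKM, then 9.18 and 9.37 FPKM (log2 fold change 0.0049, SE 0.05, limma adjusted p = 0.972). Both overlapped between the groups. The other middle genes, Med4, Med7, Med9, Med10, Med21 and Med31, had log2 fold changes from -0.06 for Med21 to 0.05 for Med31, and the median of the 9 middle genes was 0.0049. Med21 was the only middle gene whose Tox4 values both lay below its Luc values, at 18.9 and 17.7 FPKM under Luc and 17.5 and 17.7 FPKM under Tox4 esiRNA (limma adjusted p = 0.577).

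The head contacts RNA polymerase II, and Med17 is its central scaffold. Med17 was at 28.1 and 27.8 FPKM in the Luc libraries and at 26.5 and 27.1 FPKM in the Tox4 libraries. The groups did not overlap (log2 fold change -0.06, SE 0.04, limma adjusted p = 0.457). Med6, which joins the head to the middle, was at 33.0 and 28.3 FPKM under Luc and at 27.6 and 30.3 FPKM under Tox4 esiRNA (log2 fold change -0.08, SE 0.08, limma adjusted p = 0.636). Without Luc replicate 1 its log2 fold change was 0.03. Med18, part of the movable jaw of the head, was at 10.9 and 11.2 FPKM, then 11.5 and 11.9 FPKM, higher in both Tox4 libraries (log2 fold change 0.07, SE 0.05, limma adjusted p = 0.474). Med20, which pairs with Med18 in that jaw, was the lowest head gene at 4.91 and 5.20 FPKM, then 4.93 and 5.18 FPKM (log2 fold change -0.0002, SE 0.07, limma adjusted p = 0.999). The 8 head genes summed to 180 and 173 FPKM in the Luc libraries and to 173 and 181 FPKM in the Tox4 libraries, and their median log2 fold change was 0.0052.

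Tail subunits are the usual contacts of activators, and 7 of the 9 had a log2 fold change above 0, with a median of 0.05. Med27, at the junction of tail and head, was at 23.1 and 24.1 FPKM in the Luc libraries and at 25.0 and 26.6 FPKM in the Tox4 libraries. Both Tox4 values were higher, by 0.12 on the log2 scale (SE 0.05, limma adjusted p = 0.233). Med23, a contact of Elk1 in the MAP kinase pathway, was at 14.6 and 14.3 FPKM under Luc and at 15.5 and 15.6 FPKM under Tox4 esiRNA, again without overlap (log2 fold change 0.10, SE 0.05, limma adjusted p = 0.269). Med16 was the other tail gene with both Tox4 values higher, at 19.5 and 19.2 FPKM, then 20.0 and 20.1 FPKM (log2 fold change 0.05, limma adjusted p = 0.575).

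Med25, a contact of the viral activator VP16, had the highest FPKM of the Mediator genes. It was at 64.1 and 70.7 FPKM in the Luc libraries and at 69.7 and 73.7 FPKM in the Tox4 libraries, with the groups overlapping (log2 fold change 0.09, SE 0.06, limma adjusted p = 0.431). Its FPKM values imply a length of 2289 bases, where its annotated exons sum to 7629 bases. In Luc replicate 1 Med25 had 2855 recovered reads, and Med19 had 1486 over 2059 bases of annotated exons. By annotated exon lengths Med19 would be the higher there, if the recovered reads hold no unseen common factor. Med15, through which Smad2/3 and SREBP activators contact the complex, had the lowest log2 fold change of the 44 genes. Med15 (ENSMUSG00000012114, chr16:17651208-17732891, minus strand) was at 21.9 and 22.4 FPKM under Luc and at 21.2 and 19.8 FPKM under Tox4 esiRNA, lower in both Tox4 libraries (log2 fold change -0.11, SE 0.05, 95% interval -0.23 to 0.01, limma adjusted p = 0.278). Med29 had the widest interval of all 44, from -0.35 to 0.47, with 5.95 and 8.42 FPKM under Luc and 8.42 and 6.53 FPKM under Tox4 esiRNA. It rested on the fewest reads, 103 and 115 in the Luc libraries and 113 and 76 in the Tox4 libraries. The 9 tail genes summed to 283 and 290 FPKM in the Luc libraries and to 288 and 301 FPKM in the Tox4 libraries.

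The kinase module had the lowest median level per gene among the parts of Mediator, 10.3 FPKM over its 7 genes. The medians were 26.1 FPKM for head, 18.0 FPKM for middle and 24.7 FPKM for tail genes. Paralogs that fill the same place, such as Cdk8 and Cdk19, were counted as separate genes, which lowers the kinase median. Cdk8 was at 23.4 and 22.5 FPKM in the Luc libraries and at 22.2 and 21.3 FPKM in the Tox4 libraries. The groups did not overlap (log2 fold change -0.07, SE 0.05, limma adjusted p = 0.423). Its paralog Cdk19 was at 3.38 and 3.49 FPKM under Luc and at 2.98 and 3.42 FPKM under Tox4 esiRNA (log2 fold change -0.08, SE 0.09, limma adjusted p = 0.670). Ccnc, the cyclin that both kinases need, was at 5.69 and 6.34 FPKM, then 6.30 and 5.84 FPKM (log2 fold change 0.01, SE 0.08, limma adjusted p = 0.953). Cyclin C transcripts, compared per length, were thus below those of Cdk8 in every library.

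Med12, which activates the kinase through cyclin C, was at 13.2 and 13.6 FPKM in the Luc libraries and at 14.0 and 12.8 FPKM in the Tox4 libraries (log2 fold change -0.0055, SE 0.06, limma adjusted p = 0.971). Its paralog Med12l was the lowest of the 44 genes, at 1.49 and 1.54 FPKM under Luc and 1.49 and 1.30 FPKM under Tox4 esiRNA (log2 fold change -0.07, 95% interval -0.35 to 0.21, limma adjusted p = 0.777). Med13, which tethers the module to the core complex, was at 12.0 and 12.3 FPKM, then 13.0 and 11.2 FPKM (log2 fold change -0.0076, SE 0.08, limma adjusted p = 0.969). Its paralog Med13l was at 9.89 and 10.5 FPKM, then 11.1 and 9.72 FPKM (log2 fold change 0.03, SE 0.07, limma adjusted p = 0.881). These 4 genes overlapped between the groups, and the median of the 7 kinase genes was -0.0076.

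Where 2 paralogs can fill the same place, the ratio of their FPKM values in a library gives the balance between them. Cdk8 exceeded Cdk19 by 6.92 and 6.43 times in the Luc libraries and by 7.45 and 6.23 times in the Tox4 libraries, and made up 86.2% to 88.2% of their sum. Stag2 exceeded Stag1 by 2.30 and 2.27 times, then 2.35 and 2.26 times. Pds5a exceeded Pds5b by 2.43 and 2.59 times, then 2.31 and 2.42 times. In FPKM, 1 gene of each of these 3 pairs predominated to a like degree in each library. Which gene is higher can depend on the lengths behind the FPKM values. In Luc replicate 1 Pds5a had 3222 recovered reads and Pds5b 2532. The lengths implied were 4146 and 7931 bases, where the annotated exons sum to 19335 and 9839 bases. By annotated exon lengths Pds5b would be the higher in that library. In FPKM, Med13 and Med13l were near balance, with ratios of 1.21 and 1.18, then 1.17 and 1.15, whereas Med12 exceeded Med12l by 8.89 and 8.85 times, then by 9.35 and 9.87 times. The lengths implied were 9280 of 15427 annotated exon bases for Med13l, 1875 of 7704 for Med12 and 2929 of 9832 for Cdk8. By annotated exon lengths Med13 would exceed Med13l by more, and Med12 and Cdk8 would exceed their paralogs by less. All these recalculations assume that the recovered reads hold no unseen common factor. For the pairs of Med12, Med13 and Pds5 the 2 groups did not overlap, as held for 52.0% of single genes. A two-sided exact permutation test of the log2 ratio gave p = 0.333 for each of these 3 of the 5 pairs tested, the smallest p that 2 against 2 libraries allow, and p = 1.0 for the other two. The transcripts of these pairs share no stretch of 31 bases, except those of Stag1 and Stag2. Of its 12020 such stretches, Stag1 has at most 8 in common with Stag2 and other genes of the set.

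**Figure D3:**
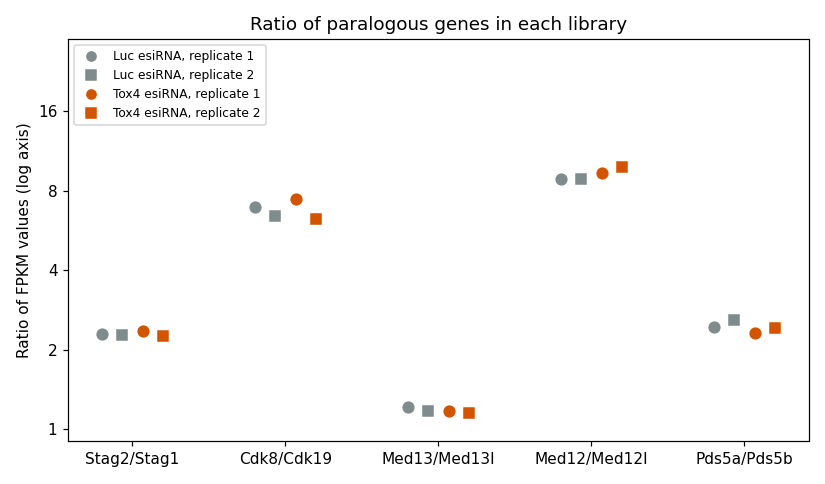
Ratio of the FPKM values of 5 pairs of paralogs in each library (log axis); grey marks Luc and orange Tox4 libraries, circles replicate 1 and squares replicate 2. The ratios lie between 1.15 for Med13 to Med13l and 9.87 for Med12 to Med12l, and the 4 libraries of a pair lie close together beside the differences between pairs.

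These genes also differed between the libraries of a group, and in part this spread went with gene length. The median size of the difference between the Tox4 replicates was 0.09 on the log2(FPKM + 1) scale, against 0.07 over all genes tested, and that between the Luc replicates was 0.05 against 0.06. Length here is the length implied by the FPKM values. The 10 longest of the 44 genes by it ran from 6082 bases for Stag1 to 10546 bases for Med13. All 10 had higher values in Tox4 replicate 1 than in Tox4 replicate 2, by 1.05-fold for Stag1 to 1.18-fold for Pds5b. This set of 10 was chosen after its values were seen. In the Luc libraries 9 of these 10 were lower in replicate 1 than in replicate 2. By annotated exons the 10 longest would include Mau2 (9131 bases), which alone among them was lower in Tox4 replicate 1, at 22.4 against 23.8 FPKM. Among the 18 genes of at least 4000 bases the median difference between Tox4 replicates 1 and 2 was 0.12, with 11 above 0, and among the 26 shorter ones it was -0.02, with 10 above 0. Over the 44 genes the difference between the Tox4 replicates had a Pearson correlation with log length of 0.41 and a Spearman correlation of 0.47, and that between the Luc replicates of -0.25 and -0.36; the genes of a set share their libraries, so no test is given.

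The same direction was present over all 12403 genes, with Pearson correlations of 0.14 for the Tox4 replicates and -0.08 for the Luc replicates. The difference between the group means had a Pearson correlation with log length of 0.06 over the 44 genes and of 0.12 over all genes. When a smooth trend with length was removed from each library, an alternative added after the data were seen, still none of the 44 genes passed the limma test. What made the replicates differ with length was not tested.

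**Figure D4:**
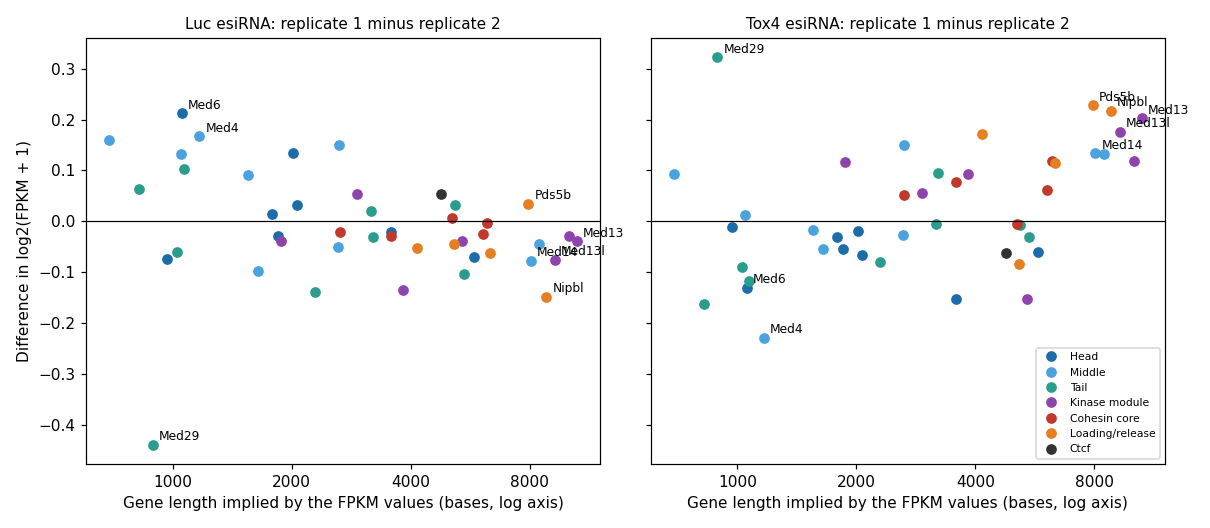
Difference in log2(FPKM + 1) between replicate 1 and replicate 2 of each group (left Luc, right Tox4) against the gene length implied by the FPKM values (bases, log axis), with 1 point per gene coloured by module. In the Tox4 panel the 10 longest genes all lie above 0, and in the Luc panel 9 of them lie below 0.

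Related machinery was set beside these genes. A list of 15 symbols covered partners of cohesin, such as cohesin acetylases, shugoshins and separase, and meiotic cohesin subunits such as Stag3 and Rec8. Sgol2 was listed under a second symbol, Sgol2a, as well. Of this list 11 genes could be tested and none passed the limma test. Among them 0 had an unadjusted p under 0.05 (21.6% of all genes) and limma-voom called 0 (11.8% of all genes), and the median log2 fold change was -0.0038. The most abundant were Pttg1 (securin, the inhibitor of separase), at a mean of 75.6 FPKM under Luc and 74.0 FPKM under Tox4 esiRNA, and Cdca5 (sororin, which stabilises cohesin on replicated DNA), at 47.7 and 47.5 FPKM. The other SMC complexes, condensin and Smc5/6, gave 14 tested genes, of which none passed the limma test, 3 had an unadjusted p under 0.05 and limma-voom called 0, with a median of -0.0082. Their most abundant members, the condensin subunits Ncapd2 and Ncaph2, were at means of 132 and 90.7 FPKM under Luc and 133 and 85.9 FPKM under Tox4 esiRNA.

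The general transcription factors, which assemble with RNA polymerase II at promoters, gave 31 tested genes, counted by identifier. The symbol Taf9 stood both on ENSMUSG00000052293, at a mean of 0.623 FPKM and untested, and on ENSMUSG00000078941, at 20.2 FPKM and tested (limma unadjusted p = 0.0092). Of the 31, none passed the limma test, 7 had an unadjusted p under 0.05, a share near the 21.6% of all genes, and limma-voom called 1 higher and 1 lower (5.97% and 5.87% of all genes), with a median of 0.02. Their most abundant members were the TFIIE subunit Gtf2e2, at a mean of 74.6 FPKM under Luc and 65.9 FPKM under Tox4 esiRNA, and the TFIIF subunit Gtf2f1, at 53.3 and 54.5 FPKM. Among 14 coactivators and looping factors 1 rose and none fell by limma (1.89% and 2.62% of all genes), with a median of 0.05. The 1 that rose was Ldb1, an adaptor that joins transcription factors across enhancer loops, at 47.3 and 50.2 FPKM in the Luc libraries and 56.6 and 58.1 FPKM in the Tox4 libraries (log2 fold change 0.23, limma adjusted p = 0.0438). Leaving out any 1 of the 4 libraries ended that call, with an adjusted p of at least 0.0633, whereas limma-voom called Ldb1 and 2 further genes of this list higher (5.97% of all genes).

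Reads of some of these genes could not be assigned with certainty. Exons of 18 of the 44 genes overlap exons on the opposite strand in the GENCODE annotation of GRCm38, and the use of strand in counting is not given in the sources used here. In 8 of the 44 genes at least 10% of the 31-base stretches of their exons, on either strand, occur in transcripts of another gene, led by Med10 (90.3%, through the overlapping gene Gm26819 on the opposite strand; the FPKM values of Med10 imply a length of 691 bases, out of 4491 bases of annotated exons), Med20 (28.0%) and Med31 (25.0%), and Cdk8 shares 736 of its stretches with the processed pseudogene Gm7107. For 12 of the 44 genes (Cdk8, Med4, Med10, Med12, Med15, Med17, Med21, Med25, Med27, Med28, Pds5a and Smc3) the length implied by the FPKM values was under 50% of the summed annotated exons. It was 1875 of 7704 bases for Med12 and 4146 of 19335 bases for Pds5a. Which transcripts the authors' lengths cover was not tested, and levels compared between genes, the paralog ratios included, rest on those lengths. If the reads of such a gene instead hold an unseen common factor, the recovered reads and the implied length change together while the FPKM values stay as they are.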

How the data were processed

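Polyadenylated RNA of 2 Luc and 2 Tox4 esiRNA libraries was analysed, grouped by library title. The authors deposited FPKM values per gene, in 1 table and 4 identical library files. CASAVA 1.8, STAR 2.3.0e and build GRCm38.p1 are named per the submitters' processing notes; how reads were counted, with which annotation and strand setting, is not given in the sources used here. FPKM are not counts. Within each gene they were whole multiples of 1 read for 100% of values (relative tolerance 1e-12); the smallest multiple giving a whole gene length within 0.02 bases was taken, a common factor being chosen for 4.29% of tested genes. The recovered reads, 97.7% of the implied depth in each library, were used for limma-voom, which called 1468 genes. Median reads per tested gene were 458 to 685, and depth limits the precision of low genes.

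The 12403 genes averaging 1 FPKM or more were tested on log2(FPKM + 1) by the two-sided moderated test of limma 3.58.1 (R 4.3.3), with intensity trend, no covariate, 2 residual and 4.01 prior degrees of freedom, and Benjamini-Hochberg adjustment over all 12403 at 0.05. Fold changes on this scale understate the change of low genes. The fit and the read recovery were tested on simulated data. There the fit missed most changes of 1.3-fold, and the share of false genes among those called was above the nominal 0.05. GENCODE (GRCm38) held 98.7% of identifiers. Alternatives were pseudocounts of 0.1 and 0.5, other filters, no trend, equal library medians, a replicate block, each library left out and limma-voom. The genes, lists and rule for naming were chosen with earlier results of these data known. The rule named the 6 highest and 6 lowest fold changes, the 3 highest and 3 lowest levels, all cohesin, Ctcf and kinase genes, and Med1, Med14, Med17, Med23 and Med26; of related lists, up to 4 genes past the threshold or the 2 most abundant. Med16, Med21 and Med29 were described in addition, after their values were seen. Same-numbered replicates did not deviate together (r = -0.04 across 12403 genes), so the numbers were not used as pairs.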

Additional observations from a re-analysis of the deposited data

How the results depend on the processing

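None of the 44 genes passed the threshold in either direction under pseudocounts of 0.1 and 0.5, a filter of 5 FPKM (which leaves out Cdk19 and Med12l) or none, no intensity trend, equal library medians, the replicate block, a length trend removed (added after the data were seen) or any library left out; limma-voom called 1 (Med14). Over all genes the 234 higher and 325 lower became 740 and 728 by limma-voom, 365 and 476 with a 5 FPKM filter, 146 and 202 with no filter, 33 and 45 without the trend, and 222 and 334 with the replicate block, where the 44 genes gave 0 and 0. Leaving out a library left 27 to 176 higher and 34 to 296 lower, 27 and 34 without Luc replicate 1, 28 and 35 without Luc replicate 2, 176 and 246 without Tox4 replicate 1, and 141 and 296 without Tox4 replicate 2; a lone library is assumed to vary like the others. The median of the Mediator genes then ranged from -0.011 to 0.030, and that of cohesin and Ctcf from -0.013 to 0.057.

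Of 375 values of the named genes under alternatives, 35 changed sign, all at sizes of at most 0.094, none past the threshold. Limma-voom gave 0.00022 for Med12, 0.0016 for Med20 and 0.00011 for Wapal, and removing the length trend gave -0.0045 for Ctcf, 0.010 for Med12 and -0.0014 for Med13l. With a library left out, values ranged from -0.055 to 0.079 for Ccnc, -0.021 to 0.040 for Ctcf, -0.063 to 0.022 for Mau2, -0.076 to 0.055 for Med1, -0.064 to 0.053 for Med12, -0.11 to 0.094 for Med13, -0.061 to 0.11 for Med13l, -0.035 to 0.035 for Med20, -0.020 to 0.030 for Med26, -0.18 to 0.028 for Med6, -0.046 to 0.17 for Nipbl, -0.065 to 0.11 for Pds5a, -0.013 to 0.21 for Pds5b, -0.020 to 0.057 for Rad21, -0.015 to 0.038 for Smc3, -0.0059 to 0.11 for Stag2 and -0.061 to 0.054 for Wapal. The causes were not tested. Med29 had the fewest reads, 76 to 115 per library.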
